A study of Mus musculus with 12 samples.

Results

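The mir-30 family comprises 6 microRNA (miRNA) hairpins of the mouse, mmu-mir-30a, mmu-mir-30b, mmu-mir-30c-1, mmu-mir-30c-2, mmu-mir-30d and mmu-mir-30e, written without the species prefix from here on. They were chosen by name from the 1050 miRNA hairpins listed in 12 small RNA libraries, and all 6 had reads in every library. The sperm libraries came from C57BL6/J males that were fed a control diet (CD, 16% of kcal from fat, AIN-93G) or a high-fat diet (HFD, D12492, 69% of kcal from fat) for 7 weeks from the age of 4 weeks. These figures are those of the sample labels, and the study's text gives a lower fat content for the HFD and, in a legend, a later starting age. Each of the 3 libraries per diet holds epididymal sperm pooled from 3 mice. The other libraries came from TM4, a mouse Sertoli cell line, with 2 libraries of non-treated cells (Ctrl), 2 of cells kept for 12 h with 10 µM Compound C (CC), an inhibitor of the energy sensor AMPK, and 2 of cells that overexpressed the ribonuclease angiogenin from a plasmid (Ang OE). Ang OE and CC share the Ctrl libraries, and nothing states that the TM4 replicates are separate cultures, so p-values for TM4 measure the spread between these libraries, which may be technical. The study's methods also mention batch effects among the cell line libraries without saying which library belongs to which batch, so batches could not be modelled here.

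A miRNA is cut from a hairpin precursor, and 1 strand of the resulting duplex, named 5p or 3p after its arm, guides the Argonaute protein to messenger RNAs. Bases 2 to 8 of the guide, the seed, do most of the pairing, so that miRNAs with the same seed share many targets. The miR-30 family is expressed broadly in mammalian tissues and is known for restraining the epithelial-mesenchymal transition and autophagy, with Snai1 and Becn1 among its reported targets.

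The mature sequences are shown because the family is defined by a seed on the 5p arm, and because near-identical copies decide how reads are divided among the hairpins. RefSeq entries of build GRCm38.p6 were matched for 4 of the 6 hairpins, and mir-30b and mir-30d are given by name. Capitals mark the seed, 5′ to 3′.
miR-30a-5p: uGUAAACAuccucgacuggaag
miR-30e-5p: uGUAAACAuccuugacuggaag
miR-30c-5p: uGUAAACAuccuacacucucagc
miR-30a-3p: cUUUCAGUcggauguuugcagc
miR-30e-3p: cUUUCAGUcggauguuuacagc
miR-30c-1-3p: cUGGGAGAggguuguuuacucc
miR-30c-2-3p: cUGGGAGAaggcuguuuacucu
The 5p miRNAs shared their seed, GUAAACA, and were identical over the first 12 bases. miR-30a-5p and miR-30e-5p differed at 1 of 22 bases, C13U, and their 3p partners also differed at 1, G18A, with positions counted from 1 at the 5′ end and the miR-30a base first. miR-30c-5p differed from miR-30a-5p at 5 of 22 bases, C13A, G14C, G18C, G19U and A20C. Both mir-30c hairpins give the same 23-base miR-30c-5p and share a stretch of 28 bases, so a miR-30c-5p read cannot be assigned to either copy. Their 3p miRNAs differed at 3 bases, G9A, U12C and C22U, with the miR-30c-1-3p base first.

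The seed GUAAACA was found in 4 of 1679 mature miRNA names in the RefSeq table, which is 0.2382%. The fourth name besides the 3 members' was miR-384-5p.
miR-384-5p: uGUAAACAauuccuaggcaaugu
Its hairpin, mir-384, had 10 reads in the whole series, in 5 of 12 libraries and at most 5 in any of them. The GUAAACA miRNAs counted in these libraries were therefore almost wholly those of the mir-30 hairpins, as far as the RefSeq table names them.

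The matched hairpins lie in pairs on the mouse genome. In GRCm38.p6, mir-30a (chr1:23272269-23272339) and mir-30c-2 (chr1:23291701-23291784) are both on the plus strand, with 19361 bases between them. On chromosome 4, mir-30c-1 (chr4:120769534-120769622) and mir-30e (chr4:120772606-120772697) are both on the minus strand, with 2983 bases between them, inside Nfyc, which codes for a subunit of the transcription factor NF-Y. The GENCODE annotation of GRCm39 places mir-30c-1 and mir-30e in introns of Nfyc on the strand of the gene, and mir-30a and mir-30c-2 in exons of the long non-coding RNAs Gm53541 and Gm27028.

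Values are CPM, the reads of a hairpin scaled to 1000000 reads matched to miRNA hairpins, of which there were 11412945 to 14822686 per sperm library and 27651384 to 35704399 per TM4 library. The files count hairpins and not arms, and a read that matches several hairpins is divided among them. The sperm libraries held more signal of a germ cell list of 9 hairpins (3455 to 10313 CPM) than the TM4 libraries (959.6 to 2067 CPM), as well as 8946 to 14327 CPM of 5 epithelial hairpins of the mir-200 group, which summed to 1.28 to 2.38 CPM in TM4. The gonadal somatic marker mir-202, the only hairpin on its list, was at 0 to 0.178 CPM in TM4, against 4.86 to 59.8 CPM in sperm. This marker was chosen for gonadal somatic cells in general, and it was all but absent from the cell line. HFD replicate 1 stood apart from the other HFD libraries, with chi-square values per degree of freedom of 993 and 1241 against them over all hairpins, where HFD replicates 2 and 3 differed by 256 and the CD pairs by 223 to 272. Every pair of replicates differed by more than sampling noise.

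The family took 1.45 to 2.10% of the miRNA reads in sperm and 4.79 to 5.78% in TM4. In CD sperm the summed level was 15713, 16519 and 15756 CPM (15996 ± 453, SD, n = 3), and in HFD sperm 14533, 19093 and 20951 CPM (18192 ± 3302, SD, n = 3). The HFD libraries thus lay on both sides of the CD range. Among the TM4 libraries, Ctrl held 57777 and 51485 CPM, CC 50788 and 47866 CPM, and Ang OE 56560 and 57699 CPM, so that the range of Ang OE lay inside that of Ctrl and CC lay below both.

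The order of the members was led by mir-30a in all 12 libraries. It ranked 11th to 19th among hairpins in sperm and 8th to 10th in TM4. mir-30d came next in all 6 sperm libraries and in the 4 Ctrl and CC libraries, but in both Ang OE libraries mir-30e was above it. In sperm, mir-30e (625 to 1254 CPM), mir-30c-1 (755 to 1254 CPM), mir-30c-2 (800.3 to 1305 CPM) and mir-30b (645 to 862 CPM) had overlapping ranges. mir-30c-2 was above mir-30c-1 and mir-30c-1 above mir-30b in all 6 sperm libraries, and only mir-30e changed its place among them. In TM4 the order was mir-30e, mir-30c-2, mir-30c-1 and mir-30b in every library. The mature miRNAs shown are 22 or 23 bases long, so the levels of mir-30a, mir-30c-1, mir-30c-2 and mir-30e are compared at nearly equal length. The mature lengths of mir-30b and mir-30d were not matched.

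**Figure D1:**
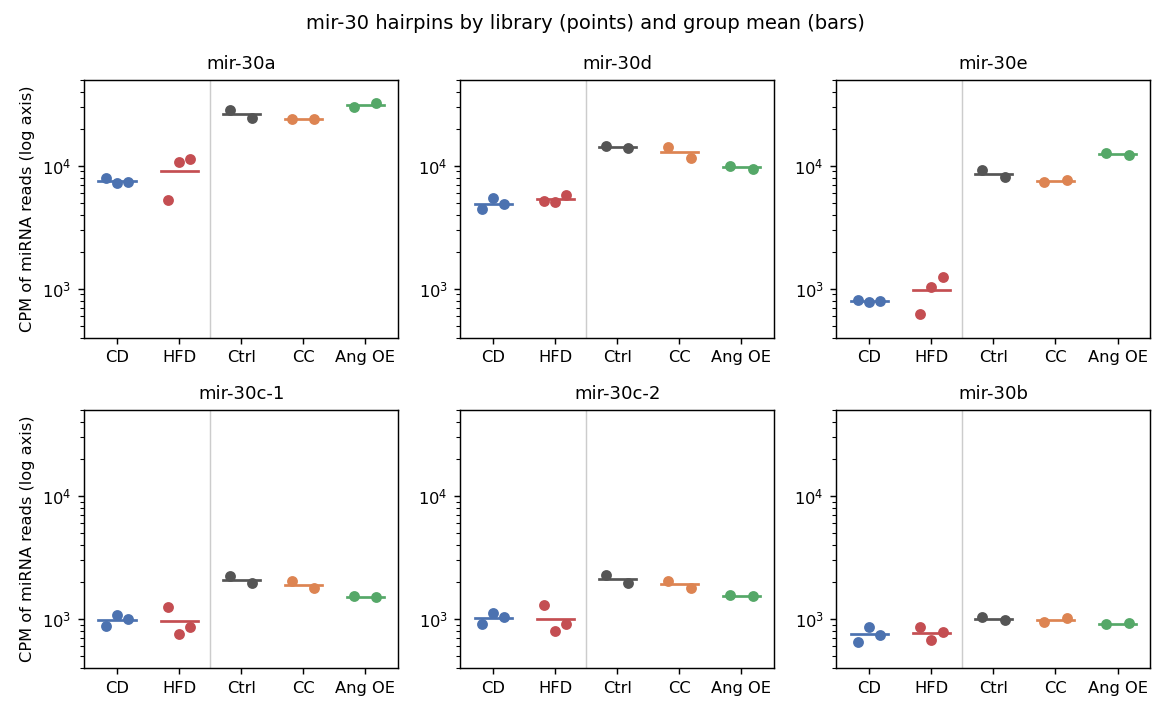
CPM of miRNA reads (log axis) of each mir-30 hairpin, with a point per library and a bar at the group mean (n = 3 for CD and HFD, n = 2 for Ctrl, CC and Ang OE). Every TM4 point lies above every sperm point of the same hairpin, and mir-30e shows the widest gap on the log axis, from 625 to 1254 CPM in sperm to 7403 CPM or more in TM4.

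The comparison of HFD with CD asks whether the diet altered the miRNAs of sperm. None of the 6 hairpins passed an adjusted p of 0.05 in edgeR's quasi-likelihood test over 451 hairpins, and none had an unadjusted p under 0.05. The background was alike, since 0% of all hairpins were called and 31, or 6.87%, had an unadjusted p under 0.05, while DESeq2 called 8 hairpins, of which none was a member. mir-30a was at 8011, 7223 and 7315 CPM in CD and at 5305, 10753 and 11374 CPM in HFD. HFD replicate 1 lay below all CD libraries and the other HFD libraries above them, so the groups overlapped, and the log2 fold change was 0.18 with a 95% interval of -0.48 to 0.83. mir-30e followed the same layout, with 808, 784 and 791 CPM in CD and 625, 1028 and 1254 CPM in HFD (log2 fold change 0.18, 95% interval -0.41 to 0.76).

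Both mir-30c hairpins had the opposite layout in the HFD libraries. mir-30c-1 was at 870, 1081 and 993 CPM in CD and at 1254, 755 and 860 CPM in HFD, where replicate 1 was the highest of all sperm libraries and replicates 2 and 3 the lowest. Its log2 fold change was -0.15 ± 0.20 (SE), and that of mir-30c-2 was -0.14 ± 0.20. mir-30d, at 4464, 5444 and 4878 CPM in CD and 5181, 5084 and 5784 CPM in HFD, had a log2 fold change of 0.01 ± 0.14. mir-30b, at 645, 860 and 744 CPM in CD and 862, 672 and 777 CPM in HFD, had one of -0.07 ± 0.16. No member's groups were free of overlap, against 6.21% of all hairpins. Without HFD replicate 1 the log2 fold changes became 0.53 for mir-30a and 0.50 for mir-30e (adjusted p = 0.193 for each) and -0.29 for mir-30c-1 (adjusted p = 0.307). No member was called without that library either, and neither was any other of the 446 hairpins tested.

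The summed levels of the marker lists were set beside the family level in sperm, and some went with it while others went against it. The 6 sperm libraries stood in the same order by their summed mir-30 level and by their summed level of the 5 epithelial hairpins, which was 9281, 10573 and 9325 CPM in CD and 8946, 11272 and 14327 CPM in HFD. For the 6 pairs of values, Pearson's r on the log2 scale was 0.96. It was 0.80 for the smooth muscle list, -0.09 for the white blood cell list, -0.37 for the germ cell list, -0.43 for mir-202 and -0.59 for the red blood cell list, all given as descriptions over libraries that share this normalization. The smooth muscle list was at 50989, 42735 and 33628 CPM in CD and 30652, 52041 and 56169 CPM in HFD, again lowest in HFD replicate 1, and the red blood cell list was highest in it, at 50595 CPM against 25239 to 36163 CPM in the other sperm libraries. The white blood cell list was at 592 to 685 CPM in CD and 787 to 1435 CPM in HFD. The part of these cells in the mir-30 values was not tested, and in bulk RNA fewer cells of a type cannot be told apart from less RNA per cell.

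No mir-30 hairpin passed the test for Compound C. Of 533 hairpins in a model of the 6 TM4 libraries, 22 (4.13%) were called, and none of these was a member. All 6 members had negative log2 fold changes, from -0.04 for mir-30b to -0.19 for mir-30e (SE 0.10, adjusted p = 0.310), against a median of -0.03 over all hairpins. Of all hairpins, 48.0% had a positive log2 fold change. Both mir-30c hairpins share their 5p miRNA, so the 6 values are not independent. mir-30a was at 28526 and 24534 CPM in Ctrl and at 24077 and 24070 CPM in CC. mir-30e was at 9174 and 8046 CPM in Ctrl and at 7403 and 7643 CPM in CC. These 2 were the only members whose CC libraries lay below both Ctrl libraries, which was also the case for 24% of all hairpins tested. The 95% intervals ran from -0.39 for the lowest bound, of mir-30e, to 0.17 for the highest, of mir-30b.

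In Ang OE, members of the family differed from Ctrl in both directions. No group is labelled as carrying the plasmid without Ang. Effects of transfection or plasmid thus cannot be told apart from those of angiogenin in any Ang OE comparison. By the quasi-likelihood test, mir-30e and mir-30a were higher in Ang OE than in Ctrl, mir-30d was lower, and mir-30c-1, mir-30c-2 and mir-30b were not called. This made 2 members higher, where 24.2% of all 533 hairpins were called higher, and 1 lower, where 14.1% were. mir-30e was at 9174 and 8046 CPM in Ctrl and at 12635 and 12149 CPM in Ang OE. Both Ang OE libraries lay above both Ctrl libraries, and the fitted difference was 1.74-fold (log2 fold change 0.80, SE 0.10, adjusted p = 6.22e-06, higher in 2 of 2 libraries). mir-30a, whose mature 5p form differs from that of mir-30e at 1 base, was at 28526 and 24534 CPM in Ctrl and 30037 and 32147 CPM in Ang OE. It was 1.42-fold higher by the fit (log2 fold change 0.51, SE 0.10, adjusted p = 7.59e-04), but with all miRNA reads as the library size its log2 fold change was 0.23 and it was no longer called (adjusted p = 0.109).

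mir-30d was at 14557 and 14004 CPM in Ctrl and 9893 and 9456 CPM in Ang OE, without overlap. Its log2 fold change was -0.29 (SE 0.11, adjusted p = 0.0467), and the call was lost when Ctrl replicate 1 (adjusted p = 0.123), Ctrl replicate 2 (adjusted p = 0.145) or Ang OE replicate 2 (adjusted p = 0.0931) was left out, with log2 fold changes of -0.28, -0.28 and -0.31. It was also lost with no filter (-0.26, adjusted p = 0.0721), and it was called in 12 of 16 settings, at -0.56 with all miRNA reads as library size. The 2 mir-30c hairpins, which share their 5p miRNA, had nearly the same values. mir-30c-1 was at 2227 and 1949 CPM in Ctrl and 1537 and 1494.8 CPM in Ang OE, and mir-30c-2 at 2261 and 1975 CPM against 1551 and 1525 CPM, again without overlap. Their log2 fold change of -0.19 did not pass the test (adjusted p = 0.174 for each). Both were called lower with all miRNA reads as library size (-0.46 each), with clean reads without rRNA (-0.33 each), with at least 100 reads and with ComBat-seq. mir-30b, at 1033 and 977 CPM in Ctrl and 906 and 928 CPM in Ang OE, had a log2 fold change of 0.14 (adjusted p = 0.271) although its CPM were lower in Ang OE.

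The sign for mir-30b followed the scaling. The trimmed mean of M values (TMM), the scaling of the fit, gave the Ang OE libraries factors of 0.90 and 0.86 and the Ctrl libraries factors of 1.08 and 1.05, and the median log2 fold change of all hairpins was 0.06 with it and -0.21 with all miRNA reads as library size. The split of calls over all hairpins went from 129 higher and 75 lower to 81 higher and 139 lower, and the members from 2 higher and 1 lower to 1 higher and 3 lower. Another scaling shifts all hairpins by about the same amount, so the distance from their median is nearly fixed by construction. With TMM it was 0.74 for mir-30e, 0.45 for mir-30a, 0.08 for mir-30b, -0.25 for mir-30c-1 and -0.35 for mir-30d. In CPM, 2 members lay above Ctrl and 4 below it without overlap, where 25.1% of all hairpins lay above and 45.2% below. Beside these results, the smooth muscle list was at 94556 and 129039 CPM in Ang OE and 49715 to 55567 CPM in Ctrl, the germ cell list at 1964 to 2067 CPM against 1046 to 1090 CPM and the red blood cell list at 1762 to 1784 CPM against 2737 to 2857 CPM. In every TM4 library mir-1a-1 and mir-1a-2 of the smooth muscle list and mir-880 and mir-463 of the germ cell list had under 3 reads. The same held for mir-144 of the red blood cell list in both Ctrl libraries and in Ang OE replicate 2. In Ang OE replicate 2, mir-143 of the smooth muscle list alone took 12.8% of the miRNA reads. These sums thus rest on part of each list. The part of these lists in the mir-30 values was not tested. The level of Ang itself is not measured in miRNA counts.

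**Figure D2:**
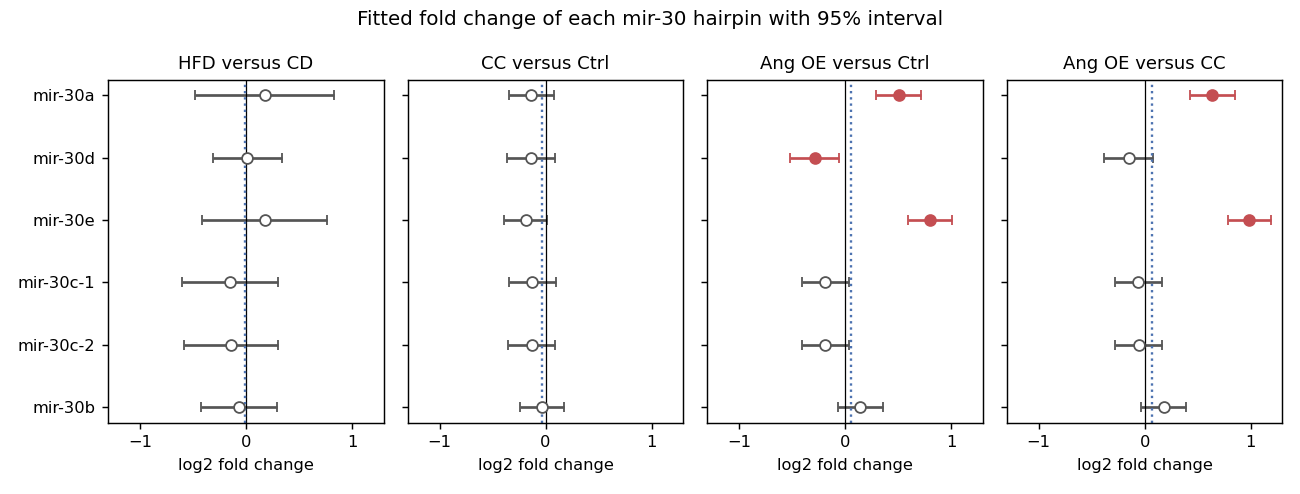
Log2 fold change of each mir-30 hairpin in 4 comparisons, with its 95% interval from the quasi-likelihood fit with TMM scaling. Filled red points had an adjusted p under 0.05, the solid line marks 0 and the dotted line the median of all hairpins. mir-30e and mir-30a stand to the right in both Ang OE comparisons (0.80 and 0.51 against Ctrl), and no member is filled for HFD or CC.

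Ang OE was also tested against CC directly, in the same model and with the same Ang OE libraries, so this result is not independent of the comparison with Ctrl. mir-30e was 1.98-fold higher in Ang OE (log2 fold change 0.99, SE 0.10, adjusted p = 5.77e-07) and mir-30a 1.56-fold (0.64, SE 0.10, adjusted p = 8.24e-05), where 26.3% of all hairpins were called higher and 15.2% lower. mir-30d was at 14289 and 11561 CPM in CC and 9893 and 9456 CPM in Ang OE and was not called (log2 fold change -0.15, adjusted p = 0.284). With all miRNA reads as library size, 5 members were called, 2 higher and 3 lower, while the calls over all hairpins went from 140 higher and 81 lower to 83 higher and 143 lower and their median log2 fold change from 0.07 to -0.20. In CC the smooth muscle list was at 51423 and 73465 CPM, the germ cell list at 960 and 1050 CPM and the red blood cell list at 1956 and 1879 CPM. The part of these lists was not tested here either.

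Ratios between members within a library do not depend on its scaling. The ratio of mir-30e to mir-30a was 0.322 and 0.328 in Ctrl, 0.307 and 0.318 in CC, and 0.421 and 0.378 in Ang OE. In all 6 sperm libraries it was 0.0956 to 0.118. The ratio of mir-30d to mir-30a was 0.510 and 0.571 in Ctrl, 0.593 and 0.480 in CC, and 0.329 and 0.294 in Ang OE. In Ang OE both ratios thus lay outside the range of the 4 other TM4 libraries, while those of Ctrl and CC lay side by side. The counts of mir-30a and mir-30e hold fractions of a read in the same libraries, so some reads may have been divided between them, and the ratio of mir-30e to mir-30a describes the counts as deposited. In sperm, mir-30d to mir-30a was 0.557, 0.754 and 0.667 in CD, and 0.976, 0.473 and 0.509 in HFD, with HFD replicate 1 at the upper end.

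Ratios of neighbours on the genome differed between the libraries to unequal extents. mir-30e and mir-30c-1, both in Nfyc, stood at a ratio of 0.929, 0.726 and 0.796 in CD and 0.499, 1.36 and 1.46 in HFD. In TM4 the same ratio was 4.12 and 4.13 in Ctrl, 3.64 and 4.30 in CC, and 8.22 and 8.13 in Ang OE. mir-30a to mir-30c-2 was 4.06 in HFD replicate 1, 6.41 to 13.4 in the other sperm libraries, 11.7 to 13.4 in Ctrl and CC, and 19.4 and 21.1 in Ang OE. Since miR-30c-5p reads are divided between the mir-30c hairpins, these 2 ratios describe the counts and not the output of each locus. The 2 mir-30c counts differed by 0.867 to 5.6% of the mir-30c-2 count. The third pair, mir-30d and mir-30b, which GENCODE places on chromosome 15 on the same strand, had the smallest ratio of highest to lowest value among the neighbouring pairs in sperm. mir-30d to mir-30b was 6.01 to 7.56 in the 6 sperm libraries, with HFD replicate 1 at the lower end, 11.4 to 15.2 in Ctrl and CC, and 10.9 and 10.2 in Ang OE. The counts of mir-30b hold fractions of a read in most libraries, such as 9020.67 in CD replicate 1. Some of its reads may thus also have been divided with other hairpins, and this ratio too describes the counts as deposited.

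**Figure D3:**
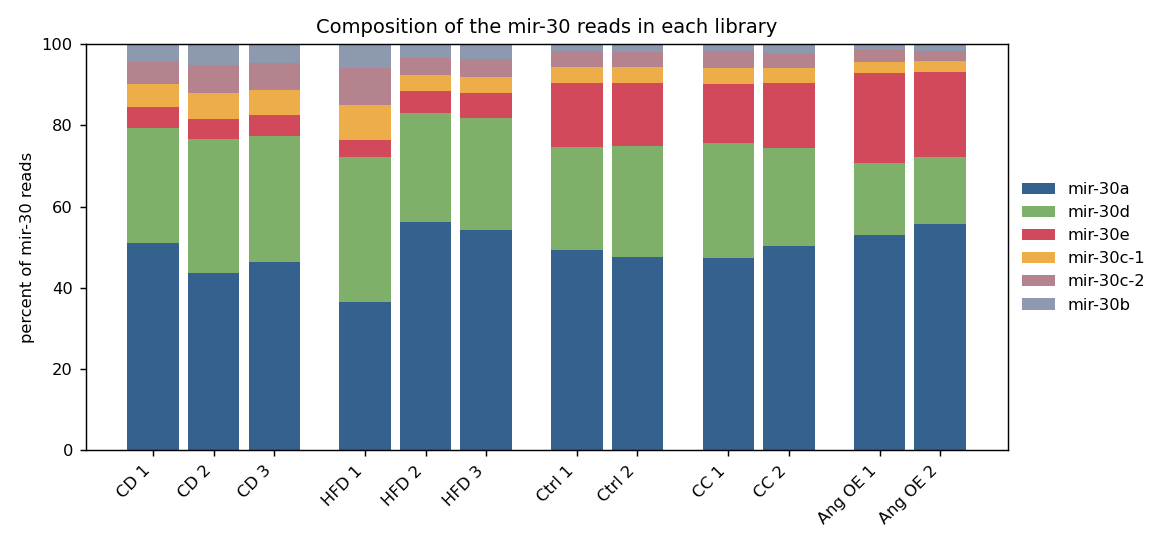
Share of each hairpin in the mir-30 reads of each library, in percent, stacked to 100%. mir-30e takes 4.30 to 5.99% in sperm, 14.6 to 16.0% in Ctrl and CC and 21.1 and 22.3% in Ang OE, where the share of mir-30d is 16.4 and 17.5%.

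The untreated TM4 cells were set against CD sperm to give the contrast between the sources. Tissue, cell line and handling cannot be told apart in it. In CPM, all 6 members were higher in both Ctrl libraries than in the 3 CD libraries, as were 59.7% of the 590 hairpins tested, and the family sum was 3.42 times as high. mir-30e had the highest ratio of Ctrl to CD of the members, from 784 to 808 CPM in CD to 8046 and 9174 CPM in Ctrl. With TMM, mir-30e was called higher (log2 fold change 2.10, SE 0.15, adjusted p = 1.91e-06), as was mir-30a (0.48, SE 0.15, adjusted p = 0.0207), and mir-30b was called lower (-0.90, SE 0.14, adjusted p = 2.80e-04), where 36.4% of all hairpins were called higher and 40.7% lower. mir-30c-1 (-0.24), mir-30c-2 (-0.28) and mir-30d (0.20) were not called. The call of mir-30a was lost with DESeq2 (0.32, adjusted p = 0.152) and with at least 100 reads (0.26, adjusted p = 0.131), and that of mir-30b with no filter (-0.26, adjusted p = 0.134) and without Ctrl replicate 1 (-0.05, adjusted p = 0.813) or Ctrl replicate 2 (-0.0062, adjusted p = 0.98). Without these 2 libraries in turn mir-30a was at 1.26 and 1.44 and mir-30d at 1.07 and 1.09, all called higher. Without CD replicate 1 mir-30a was at 0.72, and without CD replicate 2 mir-30d was at 0.42, also called higher.

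Only the result for mir-30e held its direction and its call in every setting tried, with log2 fold changes from 1.88 to 3.67. With all miRNA reads as library size, all 6 members were called higher, at 0.42 for mir-30b, 1.09 for mir-30c-1, 1.05 for mir-30c-2, 1.53 for mir-30d, 1.82 for mir-30a and 3.44 for mir-30e, so the direction of mir-30b and mir-30c depends on the scaling. That scaling moved the median of all hairpins from 0.13 to 1.47 and the split of all calls from 215 higher and 240 lower to 342 higher and 194 lower. mir-10a and mir-10b together took 57.0 to 62.6% of the miRNA reads in sperm and 24.1 to 27.5% in TM4, and the TMM factors were 0.64 to 0.77 for CD and 1.73 and 1.76 for Ctrl. Relative to the median of all hairpins, a distance that the scaling barely alters by construction, mir-30e stood at 1.96, mir-30a at 0.34, mir-30d at 0.07, mir-30c-1 at -0.38 and mir-30b at -1.04 with TMM. When either Ctrl library was left out, TMM gave 5 members higher and none lower, while the calls over all hairpins were 197 higher and 204 lower without Ctrl replicate 1 and 193 higher and 203 lower without Ctrl replicate 2.

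**Figure D4:**
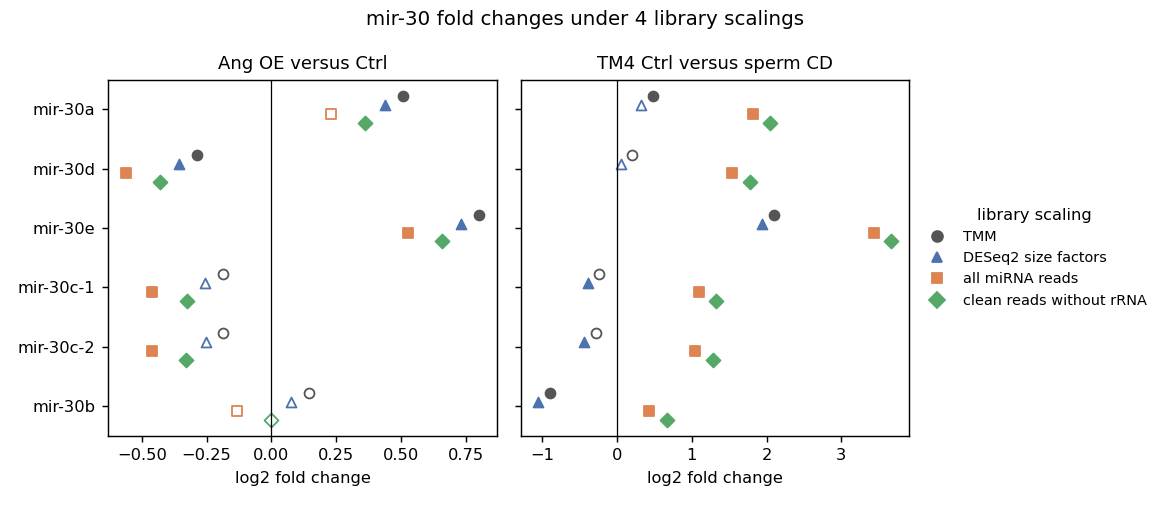
Log2 fold change of each mir-30 hairpin under 4 library scalings, for Ang OE against Ctrl and for TM4 Ctrl against CD sperm. Filled markers had an adjusted p under 0.05. In the comparison of the sources mir-30b, mir-30c-1 and mir-30c-2 lie below 0 with TMM or DESeq2 size factors and above 0 with all miRNA reads or clean reads as library size, while mir-30e lies above 0 in both panels under all 4.

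The hairpins whose profile over the 12 libraries was most like that of the family sum were mir-497a, mir-24-1 and let-7e, of 144 with a mean of at least 100 CPM. The measure was the root mean square difference of centred log2(CPM + 1) values, which was 0.175, 0.193 and 0.218 for them against a median of 1.04. mir-24-1, for example, had means of 227 and 247 CPM in CD and HFD and 901, 801 and 895 CPM in Ctrl, CC and Ang OE. Among the members, mir-30a was closest to the sum (0.166), of which it is the largest part, and mir-30e the farthest (0.907), while mir-30d stood at 0.318, the mir-30c hairpins at 0.493 and 0.507 and mir-30b at 0.687.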

How the data were processed

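Small RNA was sequenced from 6 sperm and 6 TM4 libraries made with the TruSeq small RNA kit. Per the methods, the authors trimmed the reads (FastQC 0.12.0, Trimmomatic 0.40 and build mm10 in the submitters' processing notes) and annotated those of 15 to 45 nt with SPORTS1.1, allowing a mismatch, against rRNA, tRNA, miRNA and further databases in that order. The deposited files hold estimated counts per hairpin, which the authors did not normalize. Clean reads numbered 31710445 to 64038150 per library. At this depth replicate spread exceeded counting error.

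Reads with and without a genome match were added and rounded. The quasi-likelihood test of edgeR 4.0.16 (R 4.3.3), with TMM scaling and Benjamini-Hochberg adjustment over all hairpins tested, was applied to hairpins that reached 10 reads in 3 or more sperm libraries, or in 2 or more for TM4 and for CD with Ctrl. A hairpin was called at an adjusted p under 0.05. The TM4 groups shared a model. Alternatives used DESeq2 1.42.0, ComBat-seq from sva 3.50.0 and other settings given in the closing section. Tests were checked on simulated data. Named hairpins were the 6 members, those sharing their seed, and the 3 most like the family sum (pseudocount 1), and mir-202 as a marker. mir-10a, mir-10b and the members of the marker lists other than mir-202 were named after their values were seen. Sequences and GRCm38.p6 positions are RefSeq's. Python 3.11.15, pandas 2.3.3, numpy 2.4.6 and matplotlib 3.10.9 were used. Members and marker lists were chosen with earlier results of these data known. The family sum was given no test.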

Additional observations from a re-analysis of the deposited data

How the results depend on the processing

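Of 446 member values over the alternatives, 383 kept their direction and their side of the threshold, and no member was called for HFD or CC in any setting. For Ang OE against Ctrl, 3 called members (38.3% of all hairpins) became 5 with clean reads without rRNA (37.7%), with at least 100 reads (60.3%) and with ComBat-seq on the replicate number (50.1%), 4 with all miRNA reads (41.3%) and 2 with no filter (23.5%). mir-30e was called in 16 of 16 settings, mir-30a in 15 and mir-30d in 12. For Ang OE against CC, 2 (41.5% of all hairpins) became 5 with all miRNA reads (42.4%). For TM4 Ctrl against CD, 3 (77.1% of all hairpins) became 6 with all miRNA reads (90.8%) and with clean reads (91.7%) and 5 with no filter (57.5%). They became 4 with DESeq2 (73.1%, with 1 higher and mir-30b, mir-30c-1 and mir-30c-2 lower), at least 100 reads (80.6%), genome-matched reads alone (76.7%) and a model of all 12 libraries (78.9%).

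Some log2 fold changes changed sign. For HFD, mir-30b was at 0.040 with all miRNA reads and 0.12 with clean reads, where mir-30c-1 and mir-30c-2 were at 0.041 and 0.047. With a library left out, mir-30a ran from -0.025 to 0.53, mir-30b from -0.053 to 0.020 and mir-30d from -0.0068 to 0.13. For CC, mir-30b was at 0.0081 with no filter, and mir-30d ran from -0.33 to 0.016 with a library left out. For Ang OE against Ctrl, mir-30b was at -0.13 with all miRNA reads and -0.0016 with clean reads. Against CC, mir-30b was at -0.092 with all miRNA reads, and with a library left out mir-30c-1 ran from -0.16 to 0.022 and mir-30c-2 from -0.15 to 0.024. For TM4 Ctrl against CD, mir-30b, mir-30c-1 and mir-30c-2 were at 0.42, 1.09 and 1.05 with all miRNA reads and at 0.66, 1.33 and 1.28 with clean reads. mir-30c-1 and mir-30c-2 were at 0.40 and 0.35 with no filter, at 0.16 and 0.12 in a model of all 12 libraries, and from -0.19 to 0.71 and from -0.24 to 0.67 with a library left out, the positive values being those without Ctrl replicate 1 or 2. mir-30d was at -0.015 with at least 100 reads. The cause was not tested.

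The log2 ratio of the family sum with clean reads without rRNA as denominator was 0.20 in place of 0.06 for Ang OE to Ctrl, 0.33 in place of 0.21 for Ang OE to CC and 2.01 in place of 1.77 for Ctrl to CD. When a library was left out these ratios ran from -0.016 to 0.15, from 0.17 to 0.26 and from 1.69 to 1.85, and for HFD to CD from 0.07 to 0.32.

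Replicate numbers were not taken to pair the samples, since no source ties a number to a culture or batch. Deviations of same-numbered CD and HFD libraries correlated at -0.34, -0.24 and 0.06, those of Ctrl with CC at -0.01 and with Ang OE at -0.11, and those of CC with Ang OE at 0.17. With the replicate block no member was called for HFD, where 0% of all hairpins were called, or for CC. The CC calls over all hairpins went from 22 to 35 with this block. With either CC replicate left out they went to 0, and 15 to 39 were called in the other settings. Groups of 2 or 3 libraries limit the precision of every value, and a library left alone in its group was assumed to vary like the others.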
